A study of Mus musculus with 12 samples.

Results

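Interferon-stimulated genes were followed in mouse hearts with a mutated or a deleted Lemd2 gene, which encodes a protein of the inner nuclear membrane. The 43 genes were taken by symbol from a table of 24062 gene symbols, and all 43 passed the filter on low counts in both comparisons. Whole-heart poly(A) RNA was sequenced from 12 mice, 3 in each of 4 groups, with a library per mouse. Adult hearts came from 2-month-old mice that were Lemd2 WT or homozygous for the c.T38>G point mutation (KI/KI), an allele carried by every cell of the body. Hearts at postnatal day 1 (P1) came from Lemd2-floxed mice or from mice with a cardiac-specific deletion (Lemd2 cKO). In the cKO, Cre under the Myh6 promoter removes the floxed first exon in cardiomyocytes, so that other cells of the heart keep the gene. The floxed controls carried no Cre, and an effect of Cre cannot be told apart from one of the deletion. The questions were how far each of these genes differed between mutant and control hearts, heart by heart, and whether the difference itself differed between the models.

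Cells that detect nucleic acids in the wrong place secrete interferons, which bind receptors on the same and on neighbouring cells. Receptor-bound JAK kinases then phosphorylate STAT proteins, and a complex that holds STAT2 and IRF9 enters the nucleus and binds a short sequence, the interferon-stimulated response element, before many genes. Their products sense foreign RNA, block its translation or degrade it, tag proteins with the ubiquitin-like ISG15, and keep the pathway primed. In the heart cardiomyocytes, fibroblasts, endothelial cells and macrophages can all express them.

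Levels are given as CPM, a gene's read count divided by the size of its library, as edgeR's TMM method normalized it over all 12 hearts, and multiplied to a common total. Fold changes are log2 values with their standard error (SE). Library totals ran from 37063669 to 44789753 counts, and a floor of 3 counts corresponded to between 0.0603 and 0.0962 CPM. Lemd2 itself was at 31.9, 34.7 and 33.0 CPM in WT hearts and at 25.6, 25.1 and 24.8 in KI/KI hearts. In floxed hearts it was at 24.4, 25.1 and 25.3 CPM and in cKO hearts at 6.64, 13.1 and 11.3. The mutant hearts were below their controls in both models, without overlap, at -0.39 in the adult (SE 0.06, edgeR adjusted p = 0.181, DESeq2 adjusted p = 0.000384) and -1.27 at P1 (SE 0.22, edgeR adjusted p = 0.0142). Among the libraries KI/KI 5 stood apart, with the highest sum of 7 fibroblast genes among adult hearts (4277 CPM against 1921 to 2710 in the other 5) and the lowest sum of 7 cardiomyocyte genes (48380 CPM against 60720 to 76530). Heart cKO 4 was the only one with high Xist (617 CPM, at most 2.03 in the others). The Y-linked Ddx3y, Uty, Kdm5d and Eif2s3y were at 0.00 to 0.0402 CPM in it and at 25.3 CPM or more in every other heart. By these genes cKO 4 came from a female and all other hearts from males. What sets cKO 4 apart cannot be told apart from its sex. Traces of 7 lung epithelium genes summed to 102 CPM in WT 3, 35.4 in KI/KI 4, 45.2 in floxed 2, 28.8 in floxed 1 and 19.8 in cKO 4. Most of each sum was 1 gene, Scgb1a1, at 95.6, 34.0, 34.6, 23.3 and 12.8 CPM in these hearts.

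In KI/KI hearts nearly the whole group stood above WT. Of the 43 genes, 42 had a positive log2 fold change, where 50.5% of all tested genes did, and the median was 0.59 against 0.00 over all genes. In 39 of the 43 genes all 3 KI/KI hearts lay above all 3 WT hearts, 90.7% of the members beside 11.2% of all tested genes, and none lay entirely below (10.8% of all genes did). Over all genes 22.0% had groups that did not overlap. None of the 43 passed an adjusted p of 0.05 with edgeR's quasi-likelihood test, which called 0 of 14592 genes (0.00%) in this comparison, and the members' adjusted p ran from 0.181 to 0.870. At an unadjusted p under 0.05 there were 39 members, all of them higher (90.7%, beside 8.92% of all genes higher and 7.28% lower). DESeq2 called 29 higher and 0 lower (67.4%, beside 2.10% higher, 1.46% lower and 3.56% in all over the genes it tested), and limma-voom called 0. Without KI/KI 5 the median was 0.48, all 43 genes were positive, 35 had an unadjusted p under 0.05 and edgeR called 0. Marker genes of other cells differed as well. Of 11 macrophage genes 9 were positive (median 0.34), of 7 fibroblast genes all 7 (median 0.60) and of 6 endothelial genes all 6 (median 0.13), while all 7 cardiomyocyte genes were negative (median -0.29). edgeR called none of these. At an unadjusted p under 0.05 there were 5 macrophage, 1 fibroblast, 1 endothelial and 1 cardiomyocyte gene, and DESeq2 called Cd68, Fcgr1 and the endothelial Emcn. Their part in the result was not tested. In whole-heart RNA more cells of a type and more RNA per cell cannot be told apart.

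**Figure D1:**
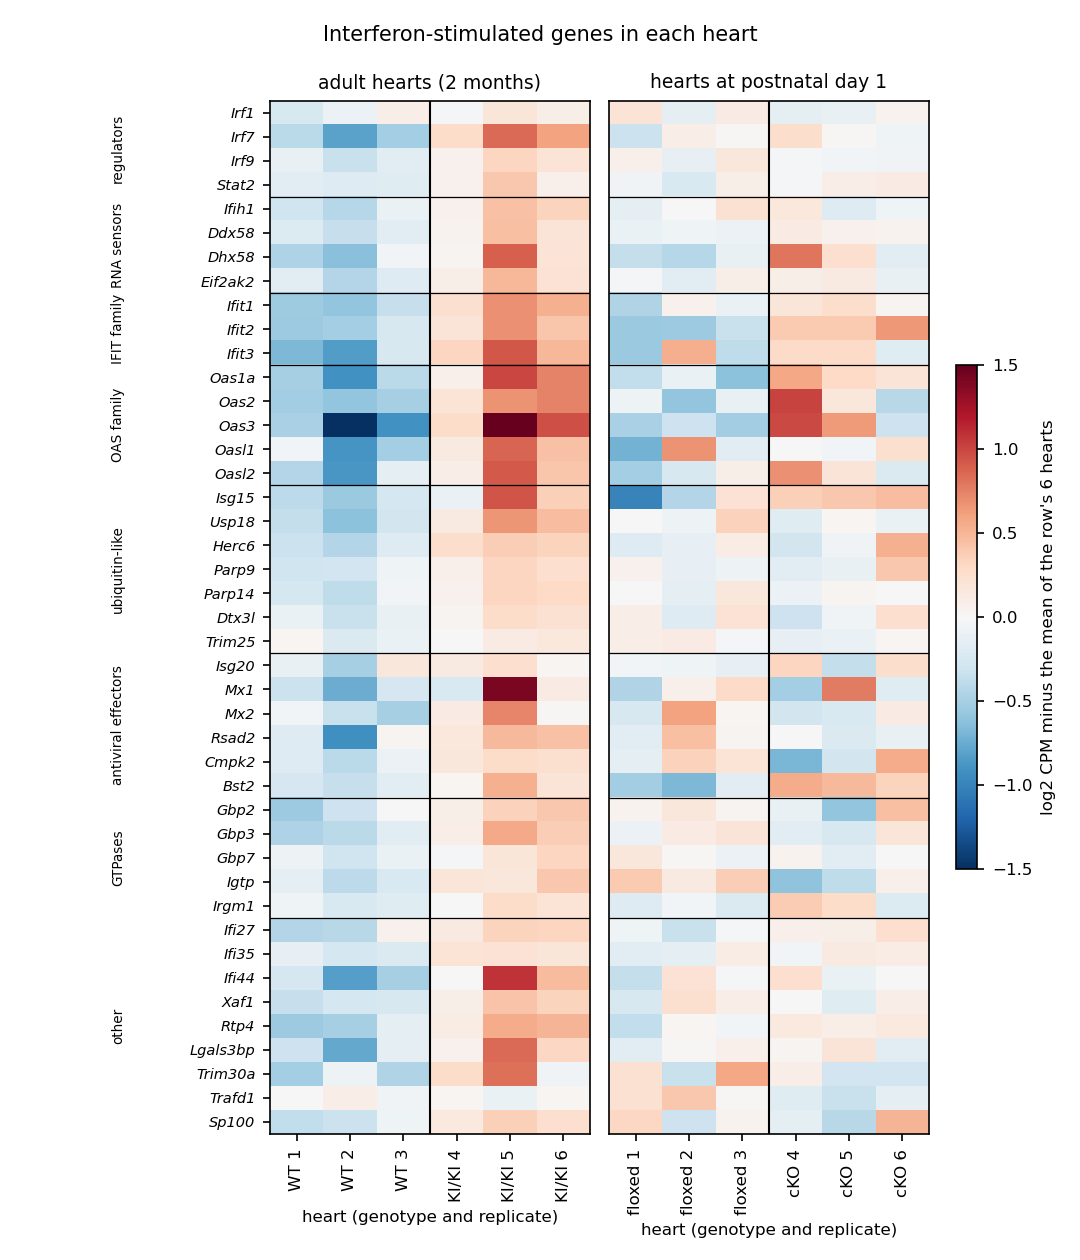
Level of each of the 43 interferon-stimulated genes (rows, grouped by role) in each heart (columns), as log2 CPM minus the mean over the 6 hearts of its comparison; red is above and blue below that mean. In adult hearts the KI/KI columns are red in nearly every row, deepest in KI/KI 5, while at postnatal day 1 the colours are mixed.

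Heart by heart, KI/KI 4 lay above all WT hearts in 39 members, KI/KI 5 in 42 and KI/KI 6 in 40. KI/KI 5 was the highest of the 6 adult hearts in 37 members, and WT 2 was the lowest in 31. Summed over the 43 genes, the level was 938, 865 and 1005 CPM in WT hearts and 1178, 1497 and 1342 CPM in KI/KI hearts, without overlap. The mean over members of centred log2 CPM was -0.30, -0.49 and -0.20 in WT and 0.10, 0.56 and 0.32 in KI/KI, so that the mildest KI/KI heart stood above the highest WT heart and the KI/KI hearts were spread over a wider range than the WT hearts.

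The regulators differed in size among themselves. Irf7, the transcription factor that amplifies interferon production, on chr7:141262706-141266481 of GRCm38, was at 12.3, 9.33 and 11.5 CPM in WT and at 19.9, 29.5 and 24.8 in KI/KI hearts. Every KI/KI heart exceeded every WT heart, with a log2 fold change of 1.17 (SE 0.17, edgeR adjusted p = 0.181, DESeq2 adjusted p = 7.40e-07). Irf9 and Stat2, whose products are in the complex that binds the response element, had 0.41 and 0.38 (SE 0.10 for each), again without overlap. Irf1, a factor induced mainly by interferon gamma, was at 27.6, 30.6 and 34.9 CPM in WT and at 31.9, 36.9 and 34.5 in KI/KI hearts. Irf1 overlapped between genotypes, at 0.16 (SE 0.11).

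The IFIT proteins bind viral RNA ends and hold back translation, and their 3 genes lie side by side on chromosome 19. Ifit1 was at 9.27, 8.91 and 10.5 CPM in WT and at 15.9, 21.6 and 19.5 in KI/KI hearts. Ifit2 was at 25.3, 25.9 and 31.4 CPM in WT and at 42.2, 59.6 and 49.5 in KI/KI hearts. Ifit3 was at 8.63, 7.72 and 11.6 CPM in WT and at 17.3, 26.5 and 19.6 in KI/KI hearts. All 3 genes separated the genotypes in every heart, with log2 fold changes of 0.99 (SE 0.14), 0.88 (0.15) and 1.18 (0.22), and DESeq2 called each of them (adjusted p = 1.02e-06, 4.10e-05 and 7.10e-05). Ifit3b, a near copy of Ifit3, can exchange reads with it.

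The 2′-5′ oligoadenylate synthetases make the second messenger that switches on RNase L, and this family had the largest median difference, 1.11 on the log2 scale over 5 genes, all without overlap. Oas2 was at 16.6, 15.7 and 16.8 CPM in WT and at 27.5, 37.9 and 39.9 in KI/KI hearts, a log2 fold change of 1.11 (SE 0.14, edgeR adjusted p = 0.181, DESeq2 adjusted p = 4.04e-08). Oas3 had the largest log2 fold change of the 43 genes, 2.18 (SE 0.51), from low levels of 0.417, 0.183 and 0.300 CPM in WT to 0.744, 2.00 and 1.23 in KI/KI hearts. Even the lowest of these lay above the floor. Oas1a was at 2.73, 2.04 and 2.92 CPM in WT and at 4.11, 7.79 and 6.51 in KI/KI hearts (log2 fold change 1.27, SE 0.27). Reads of Oas1a may be shared with its close paralog Oas1g. The synthetase-like gene Oasl1 was at 2.57, 1.40 and 1.83 CPM in WT and at 2.89, 4.85 and 3.59 in KI/KI hearts (0.99, SE 0.28). Oasl2 was at 15.7, 11.7 and 19.5 CPM in WT and at 22.9, 40.4 and 28.5 in KI/KI hearts (0.98, SE 0.26). Both were highest in KI/KI 5.

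Among the sensors of viral RNA the differences were smaller and alike in direction. Ifih1 (encoding MDA5), Ddx58 (RIG-I), their relative Dhx58 (LGP2) and the RNA-activated kinase Eif2ak2 (PKR) had log2 fold changes of 0.57, 0.49, 0.81 and 0.55, all with every KI/KI heart above WT. Eif2ak2 was at 31.9, 26.3 and 31.2 CPM in WT and at 37.9, 50.5 and 41.5 in KI/KI hearts. Isg15, the ubiquitin-like modifier, was at 3.02, 2.68 and 3.30 CPM in WT and at 3.69, 7.67 and 5.11 in KI/KI hearts (log2 fold change 0.89, SE 0.28). KI/KI 4 was only just above the WT hearts. Usp18, the protease that removes ISG15 and dampens receptor signalling, had 0.86 (SE 0.17) and Herc6, the mouse ligase for ISG15, 0.64 (SE 0.09), both called by DESeq2 (adjusted p = 0.00260 and 4.59e-05). The partners Parp9 and Dtx3l had 0.44 and 0.37, and since their transcripts share 458 exon bases on opposite strands, and the strand setting of the counting is not given in the sources used here, reads of one may have been given to the other. Trim25, the ligase that activates RIG-I, was at 72.4, 61.0 and 65.8 CPM in WT and at 71.2, 76.9 and 78.8 in KI/KI hearts, overlapping, with 0.20 (SE 0.08).

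The antiviral effectors varied more. Mx1, a dynamin-like GTPase against influenza viruses, was at 0.834, 0.610 and 0.873 CPM in WT and at 0.892, 2.87 and 1.15 in KI/KI hearts, a log2 fold change of 1.13 (SE 0.51). That value rested on KI/KI 5, without which it was 0.40. Bst2, the tether that holds budding virus at the cell surface, was at 15.6, 14.6 and 16.5 CPM in WT and at 18.9, 26.8 and 21.3 in KI/KI hearts (0.53, SE 0.14). Rsad2 (viperin), Mx2 and the kinase Cmpk2 had 0.68, 0.63 and 0.46 without overlap, while the exonuclease gene Isg20, at 3.18, 2.41 and 3.87 CPM in WT and 3.78, 4.10 and 3.51 in KI/KI hearts, had 0.27 (SE 0.20) with overlap. GTPases of the GBP and IRG families coat vacuoles that hold microbes. The 5 of them that are members were all above WT in every KI/KI heart. Their log2 fold changes were 0.70 for Gbp3, 0.55 for Gbp2, 0.51 for Igtp, 0.34 for Irgm1 and 0.33 for Gbp7. Irgm1 was at 33.8, 30.2 and 31.2 CPM in WT and at 39.9 ± 3.75 (SD, n = 3) in KI/KI hearts.

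Of the 9 other members, 8 had every KI/KI heart above WT, as 11.2% of all genes had. Ifi44 was at 12.6, 8.48 and 10.7 CPM in WT and at 15.1, 31.9 and 20.9 in KI/KI hearts (1.11, SE 0.29). Lgals3bp, a secreted scavenger-receptor protein, was at 42.1, 30.6 and 47.3 CPM in WT and at 54.5, 94.5 and 64.6 in KI/KI hearts (0.84, SE 0.24). Both were highest in KI/KI 5. Ifi27 was at 18.2, 18.5 and 26.0 CPM in WT and at 27.2, 31.1 and 30.8 in KI/KI hearts (0.51, SE 0.15). With it, Rtp4, Trim30a, Xaf1, Sp100 and Ifi35 lay between 0.41 and 0.80. The exception was Trafd1, a feedback inhibitor of innate signalling and the most abundant member per kilobase of transcript, at 77.3, 82.7 and 74.7 CPM in WT and 78.8, 72.2 and 78.9 in KI/KI hearts. It differed least of the 43, at -0.02 (SE 0.06) on the log2 scale.

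**Figure D2:**
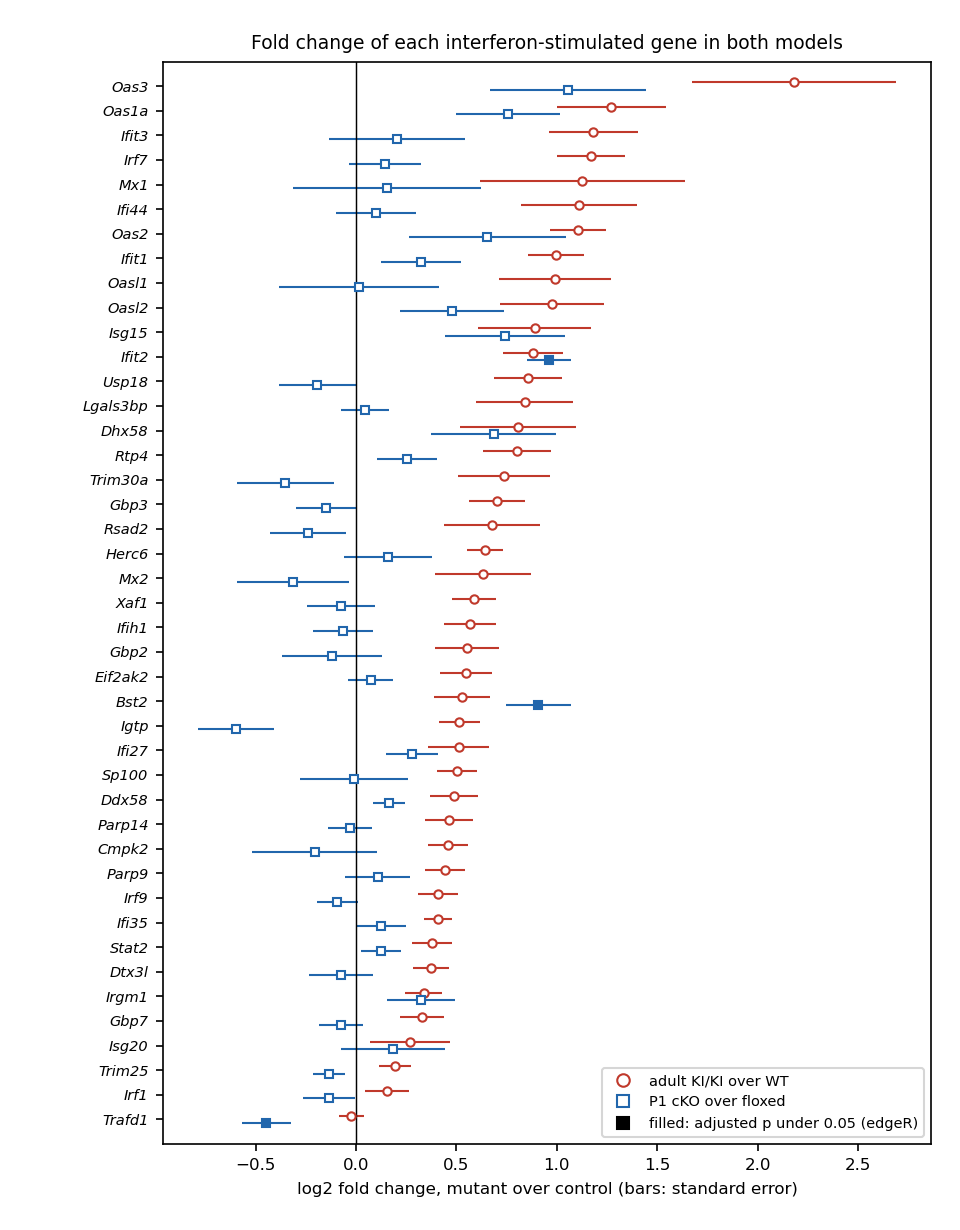
Log2 fold change of each of the 43 genes, ordered by the adult value, in adult KI/KI over WT hearts (red circles) and in P1 cKO over floxed hearts (blue squares), with the standard error as bar; filled symbols have an adjusted p under 0.05 in edgeR. Adult values run from -0.02 to 2.18 with no filled circle, P1 values from -0.60 to 1.05 with Ifit2, Bst2 and Trafd1 filled.

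Letters of the response element stand near the start sites of several of these genes, and they are shown for members of several roles. RefSeq windows of 250 bases before to 50 after the start (GRCm38.p6) were at hand for 34 of the 43 genes. The core searched for, GAAA and GAAA with 2 bases of any kind between them, on either strand, was in 17 of the 34 genes, or 50%, beside 3.99% of 27025 genes, and the same core with CT after it in 29.4% beside 0.303%. The letters TTCNNNGAA of the gamma-activated site were in 26.5% beside 9.55%. The stretches below lie before the start of Isg15 (chr4:156200860-156200911, minus strand), Ifit1 (chr19:34640770-34640828, plus), Ifit3 (chr19:34583358-34583431, plus), Oas1a (chr5:120907526-120907560, minus) and Oas3 (chr5:120777710-120777749, minus), and of Bst2 (chr8:71537572-71537617, minus), Igtp (chr11:58199507-58199546, plus) and Irgm1 (chr11:48871421-48871465, minus), whose P1 values are given further on. They are written 5′ to 3′ on the gene's strand, with matches to the core, overlapping ones run together, in capitals.
Isg15: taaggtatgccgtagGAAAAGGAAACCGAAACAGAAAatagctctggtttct
Ifit1: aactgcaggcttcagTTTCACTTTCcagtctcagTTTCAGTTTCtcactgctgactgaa
Ifit3: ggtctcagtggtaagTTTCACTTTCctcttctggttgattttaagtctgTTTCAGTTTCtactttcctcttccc
Oas1a: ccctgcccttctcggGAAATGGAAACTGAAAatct
Oas3: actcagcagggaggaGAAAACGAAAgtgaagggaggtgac
Bst2: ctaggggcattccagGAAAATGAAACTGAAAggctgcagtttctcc
Igtp: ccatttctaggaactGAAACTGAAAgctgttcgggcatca
Irgm1: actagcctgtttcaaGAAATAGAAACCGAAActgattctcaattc

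Members with and without the core in their windows differed little by median log2 fold change, and more by the number without overlap. In adult hearts the median log2 fold change was 0.57 over the 17 genes with it and 0.50 over the 17 without. Every KI/KI heart was above WT in 17 and in 13 genes (11.2% of all genes were). At P1 the medians were 0.12 and 0.01. Every cKO heart was above the floxed hearts in 5 genes with the core and 1 without (20.1% of all genes were). Every cKO heart was below in 1 gene of each kind (19.3% of all genes were). This was not tested. Windows of Mx1, Mx2, Ifi27, Rtp4, Parp9, Parp14, Oas2, Usp18 and Dhx58 were not used here. Irf7 and Ifit2, among the members with large adult values, had no match in their windows, which says only that these letters are not there.

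In cKO hearts at P1 the members were divided in direction. The median log2 fold change was 0.10 against 0.00 over all genes, and 25 of 43 were positive, 58.1% beside 49.6% of all tested genes. Ifit2 and Bst2 rose and Trafd1 fell with an adjusted p under 0.05 in edgeR, so that 4.65% of the members were called higher beside 9.32% of the 15317 genes tested, and 2.33% lower beside 7.57% (16.9% in both directions). With a fold above 2 also required, 0 members were called, beside 4.64% of all genes. At an unadjusted p under 0.05 there were 5 higher and 2 lower members (11.6% and 4.65%, beside 18.5% and 16.2% of all genes, 34.6% together). All cKO hearts lay above the floxed hearts in 8 members (18.6%, beside 20.1% of all genes) and below them in 2, Igtp and Trafd1 (4.65%, beside 19.3%), and 39.3% of all genes did not overlap. DESeq2 called Ifit2 and Bst2 higher (13.6% of all genes were) and Trafd1 and Igtp lower (11.0% were, 24.6% in both directions). These called shares of members were below those of all genes. Without cKO 4, the only female heart and the one with the highest macrophage sum, edgeR called 2 higher and 0 lower. The median was then 0.04. Without floxed 1 it called 1 higher and 0 lower, 21 of 43 were positive and the median was -0.01.

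Ifit2 was at 20.1, 20.3 and 23.4 CPM in floxed and at 38.8, 39.0 and 46.5 in cKO hearts. Each cKO heart was far above each floxed heart, with a log2 fold change of 0.96 (SE 0.11, edgeR adjusted p = 0.00621, DESeq2 adjusted p = 4.00e-11), and the gene stayed past the test in all 6 fits that left out a heart. Its neighbours on chromosome 19 gave other values. Ifit3 was at 1.29, 2.84 and 1.46 CPM in floxed and at 2.35, 2.36 and 1.69 in cKO hearts, and Ifit1 at 1.50, 2.16 and 1.93 and at 2.35, 2.50 and 2.13. Both overlapped between the groups, with log2 fold changes of 0.20 (SE 0.34) and 0.32 (SE 0.20).

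Bst2 was at 6.91, 6.22 and 8.85 CPM in floxed and at 14.6, 14.0 and 12.6 in cKO hearts. The groups stood clear of each other, with a log2 fold change of 0.91 (SE 0.16, edgeR adjusted p = 0.0145, DESeq2 adjusted p = 1.82e-05). It lost the call without floxed 1, floxed 2 or cKO 5 (adjusted p = 0.0856, 0.0562 and 0.0634 in edgeR), at log2 fold changes of 0.86, 0.79 and 0.90. Trafd1, on chr5:121371725-121385632, was at 71.0, 79.9 and 61.3 CPM in floxed and at 53.1, 48.0 and 54.7 in cKO hearts, and fell by 0.45 on the log2 scale (SE 0.12, edgeR adjusted p = 0.0416, DESeq2 adjusted p = 0.00748). Without floxed 1, floxed 2, cKO 4 or cKO 5 it was no longer called (adjusted p = 0.138, 0.108, 0.0635 and 0.151 by edgeR). It shares 385 exon bases with antisense genes.

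Of the synthetases, Oas3, Oas2 and Oasl2 spread widely between the cKO hearts. Oas3 was at 0.612, 0.699 and 0.594 CPM in floxed and at 1.79, 1.40 and 0.701 in cKO hearts (log2 fold change 1.05, SE 0.39, edgeR adjusted p = 0.104). Oas2 was at 2.52, 1.75 and 2.46 CPM in floxed and at 5.43, 3.00 and 1.98 in cKO hearts (0.65, SE 0.39). Oasl2 was at 7.50, 9.10 and 11.4 CPM in floxed and at 17.3, 12.2 and 9.26 in cKO hearts (0.48, SE 0.26). In each of these genes cKO 4 was the highest heart and cKO 6 was near the floxed hearts, and without cKO 4 the log2 fold changes were 0.74, 0.16 and 0.19. Oas1a, at 0.771, 0.939 and 0.637 CPM in floxed and 1.53, 1.25 and 1.16 in cKO hearts, did not overlap (0.76, SE 0.26, edgeR adjusted p = 0.0855).

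Isg15 was at 0.793, 1.20 and 1.91 CPM in floxed and at 2.11, 2.19 and 2.27 in cKO hearts (0.74, SE 0.30, edgeR adjusted p = 0.131). The cKO hearts were close together and the floxed hearts were not, and without floxed 3 Isg15 passed the edgeR test (1.13, adjusted p = 0.0471). Dhx58 was at 1.11, 1.05 and 1.32 CPM in floxed and at 2.53, 1.71 and 1.28 in cKO hearts, overlapping, with 0.69 (SE 0.31). Irf7, at 3.60, 4.85 and 4.56 CPM in floxed and 5.43, 4.59 and 4.33 in cKO hearts, had 0.14 (SE 0.18). The smallest differences were those of Oasl1, Sp100, Parp14 and Lgals3bp, between -0.03 and 0.04. Sp100, a nuclear body protein, was at 10.3, 6.66 and 8.60 CPM in floxed and at 7.50, 6.19 and 11.8 in cKO hearts. Parp14, an ADP-ribosyltransferase, was at 20.0, 18.4 and 22.8 CPM in floxed and at 19.0, 20.8 and 20.3 in cKO hearts. Lgals3bp was at 23.1, 26.2 and 27.2 CPM in floxed and at 26.5, 29.4 and 22.9 in cKO hearts, and Oasl1 at 0.363, 1.03 and 0.552 and at 0.624, 0.605 and 0.750. In all of them the hearts of the groups were mixed.

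Trim30a, at 14.1, 9.50 and 17.9 CPM in floxed and 12.8, 9.82 and 9.77 in cKO hearts, had -0.35 (SE 0.24), and the abundant Trim25, at 86.4, 88.0 and 79.7 and at 74.4, 75.1 and 82.2, had -0.13. Eif2ak2, at 34.3, 30.7 and 36.8 CPM in floxed and 36.9, 38.0 and 32.1 in cKO hearts, had 0.07 (SE 0.11), with the groups mixed. Irgm1, which regulates the other IRG proteins, was at 19.6, 21.7 and 19.2 CPM in floxed and at 29.0, 27.1 and 19.3 in cKO hearts (0.32, SE 0.17), where cKO 6 was level with the floxed hearts. Without cKO 6, Oas3 (1.33, adjusted p = 0.0161), Irgm1 (0.48, adjusted p = 0.0194) and, downward, Igtp (-0.80, adjusted p = 0.0187) passed the edgeR test. Summed over the 43 genes, the level was 572, 573 and 592 CPM in floxed and 589, 575 and 614 CPM in cKO hearts, and the group ranges overlapped.

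**Figure D3:**
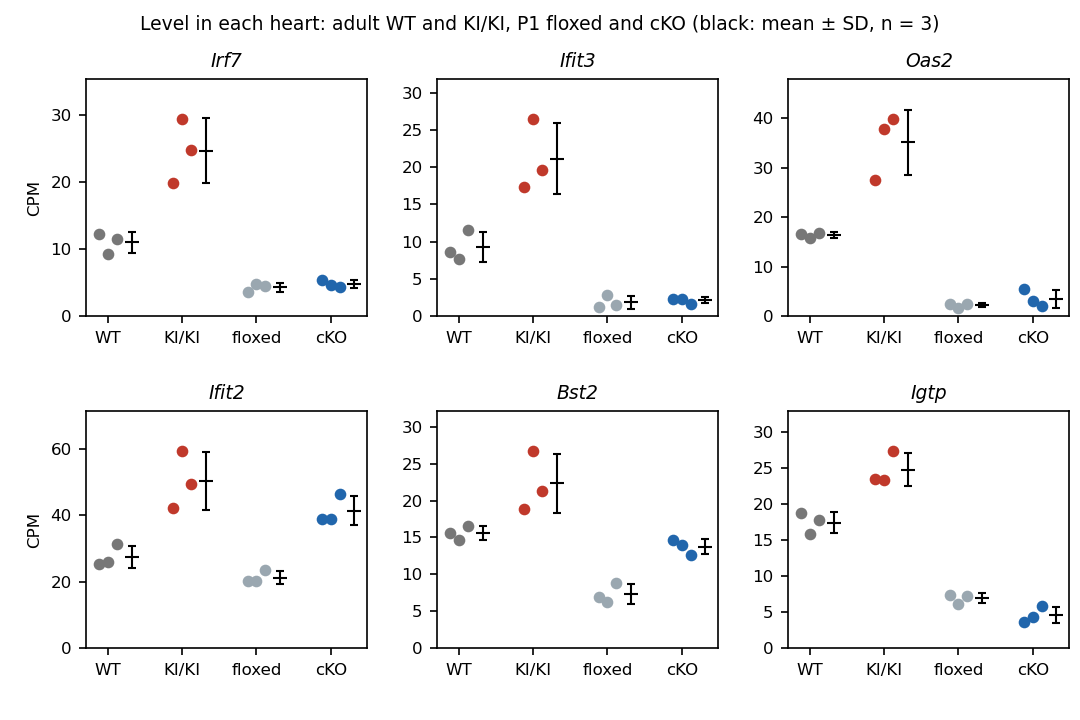
CPM (linear axis from 0) of 6 of the genes in each heart, by group, with the mean and SD of 3 hearts in black. Irf7, Ifit3 and Oas2 are higher in every KI/KI heart than in WT and overlap between cKO and floxed hearts, Ifit2 and Bst2 are higher in the mutants at both ages, and Igtp is higher in KI/KI and lower in cKO hearts.

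The difference between the models was tested directly in a fit of all 12 hearts, as the adult log2 fold change minus that at P1. It was positive for 41 of the 43 genes (50.7% of all tested genes), with a median of 0.50 against 0.01 over all genes, and only Ifit2 (-0.09, SE 0.19) and Bst2 (-0.38, SE 0.21) had the larger value at P1. Of the members, only Igtp passed an adjusted p of 0.05 in edgeR, 2.33% beside 1.27% of 15729 genes called in this direction (1.17% in the other, 2.43% together). At an unadjusted p under 0.05 there were 21, all positive (48.8%, beside 10.1% of all genes, with 9.95% negative and 20.0% together). DESeq2 called 8 positive (18.6%, beside 3.94% of all genes, with 5.19% negative and 9.13% together), namely Irf7, Irf9, Usp18, Ifih1, Xaf1, Trim30a, Gbp3 and Igtp. The models differ in age, allele, control and the cells that carry the mutation, and these cannot be told apart.

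Igtp (Irgm3), on chr11:58199556-58207591, was at 18.7, 15.8 and 17.7 CPM in WT and at 23.5, 23.3 and 27.4 in KI/KI hearts. At P1 it was at 7.34, 6.11 and 7.22 CPM in floxed and at 3.64, 4.28 and 5.85 in cKO hearts. The mutants stood above their controls in the adult (0.51, SE 0.10) and below them at P1 (-0.60, SE 0.19, edgeR adjusted p = 0.0767, DESeq2 adjusted p = 0.0417), a difference of 1.10 (SE 0.22, edgeR adjusted p = 0.0327). The call held in 4 of the 12 fits that left out a heart, those without KI/KI 5, floxed 3, cKO 4 or cKO 6, and the difference ran from 0.96 to 1.31 over the 12. Exons of Igtp and Irgm2 share 162 bases on the same strand.

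The relatives of Igtp were read from the pathway list as well. The IRG and GBP families held 16 genes in all, 5 of them members. All 16 had a positive log2 fold change in KI/KI hearts, with a median of 0.44, 0 called by edgeR, 11 at an unadjusted p under 0.05 (68.8%, beside 8.92% of all genes) and 5 called by DESeq2 (31.2%, beside 2.10%). In 10 of the 16 every KI/KI heart was above WT, as in 11.2% of all genes, and Irgm2, Gbp6, Gbp8, Gbp10, Tgtp1 and Tgtp2 overlapped. Gbp10 was at 6.38, 7.75 and 11.9 CPM in WT and at 14.7, 0.651 and 12.5 in KI/KI hearts, where KI/KI 5 was far below the rest. At P1, 10 of the 14 tested were negative and 4 positive, where 49.6% of all genes were positive. Gbp4, Gbp6, Gbp9 and Irgm2 fell with an adjusted p under 0.05 in edgeR (28.6%, beside 7.57% of all genes), and 0 rose (beside 9.32%). With a heart left out, these 4 genes each passed in 1 of 6 fits. Gbp4 was at 12.1, 14.0 and 10.9 CPM in floxed and at 3.86, 3.78 and 8.41 in cKO hearts, and fell by 1.22 on the log2 scale (SE 0.31, edgeR adjusted p = 0.0384). In adult hearts it was at 29.0, 34.5 and 34.8 CPM in WT and at 36.9, 44.2 and 47.8 in KI/KI. Gbp9 fell by 0.78 and Irgm2 by 0.47 at P1. The difference between models passed the edgeR test for Gbp4 (1.61), Gbp9 (1.11), Irgm2 (0.67) and Igtp. These were 25% of the 16, beside 1.27% of all genes in this direction. The difference did not pass for Gbp6, which fell by 0.90 at P1 (difference 1.68, edgeR adjusted p = 0.0517). GBP genes are close paralogs, and reads may be split between them.

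**Figure D4:**
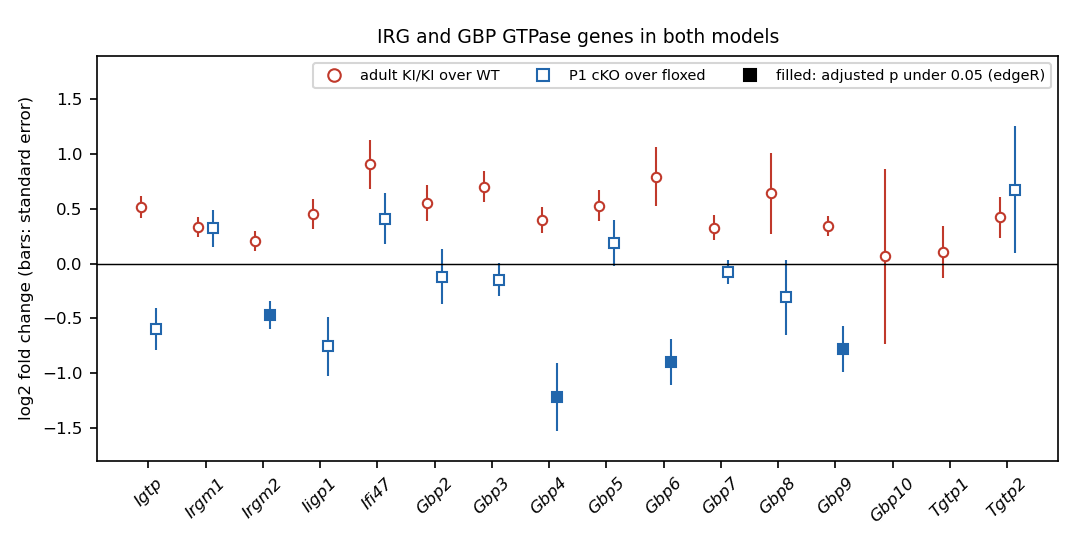
Log2 fold change with standard error of the 16 IRG and GBP GTPase genes in adult KI/KI over WT hearts (red circles) and P1 cKO over floxed hearts (blue squares); filled symbols have an adjusted p under 0.05 in edgeR, and Gbp10 and Tgtp1 were not tested at P1. All red circles are above 0, while Irgm2, Gbp4, Gbp6 and Gbp9 are filled blue squares below 0.

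The rest of the pathway was read from a list of 101 further genes, 97 of them in the table. Of 11 interferon genes, 8 had no count in any heart and none had more than 3 counts in a heart, at or under the floor, so that no difference in the ligands was detectable at this depth. All 6 receptor genes were tested and edgeR called none in KI/KI hearts (0 at an unadjusted p under 0.05, 0 by DESeq2), where their log2 fold changes ran from -0.10 to 0.22. Of 85 pathway genes tested in adult hearts, 75 were positive, with a median of 0.31. edgeR called 0. At an unadjusted p under 0.05 there were 38 higher and 1 lower (44.7% and 1.18%, beside 8.92% and 7.28% of all genes), and DESeq2 called 10 higher and 0 lower (11.8% higher, beside 2.10%). The largest of the DESeq2 calls were Zbp1, a sensor of Z-form nucleic acids (1.44), Ifi27l2a (1.25) and Oas1c (1.10).

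At P1, 79 pathway genes were tested, and 6 rose and 6 fell in edgeR (7.59% each way, beside 9.32% and 7.57% of all genes). DESeq2 called 11 higher and 9 lower (13.9% and 11.4%, beside 13.6% and 11.0%). Aim2, a sensor of cytosolic DNA, was at 3.24, 3.19 and 3.46 CPM in floxed and at 9.09, 7.82 and 5.75 in cKO hearts (1.20, SE 0.21, edgeR adjusted p = 0.0141), and its value in the adult was -0.11. Tmem173, which encodes STING, rose by 0.74, Tlr9 by 0.92, Ube2l6, the conjugating enzyme for ISG15, by 0.52, and the membrane proteins Ifitm2 and Ifitm3 by 0.40 and 0.36. With a heart left out, Aim2 and Ifitm2 passed in 3 of 6 fits, Tmem173 in 2, Ifitm3 in 1, and Tlr9 and Ube2l6 in 0. Ddx60, a helicase that assists RIG-I, fell most. It was at 9.43, 7.64 and 6.73 CPM in floxed and at 3.10, 3.00 and 3.39 in cKO hearts (-1.33, SE 0.18, edgeR adjusted p = 0.00744), and at 8.79, 5.28 and 9.19 in WT and 14.0, 13.1 and 14.6 in KI/KI hearts (0.85, SE 0.20). Its difference between models was 2.17 (SE 0.28, edgeR adjusted p = 0.0104), the largest among the genes named here. Besides Gbp4, Gbp6, Gbp9, Irgm2 and Ddx60, the receptor subunit Il10rb fell, by 0.48. Ddx60 passed in all 6 fits with a heart left out and Il10rb in 4.

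Most macrophage genes and all 3 pan-leukocyte genes had positive log2 fold changes in both models. In the adult edgeR called 0 genes of any kind, so its lack of immune calls says nothing of these markers. DESeq2 called the macrophage genes Cd68 and Fcgr1 there. At P1 edgeR called the pan-leukocyte genes Laptm5 and Coro1a higher. Other immune lists mostly overlapped between genotypes. All 4 B cell genes did in both models, as did all neutrophil genes tested (3 in the adult, 5 at P1). Of the dendritic cell genes, 5 of 6 overlapped in the adult and 3 of 3 at P1. Most genes overlapped in any case, since 22.0% of all genes in the adult and 39.3% at P1 did not. Overlap in such short lists therefore says little of these cells. The sum of 11 macrophage genes ran from 328 to 477 CPM in WT and from 499 to 580 in KI/KI hearts. In 7 of the 11 genes every KI/KI heart was above WT, as in 11.2% of all genes. In floxed hearts the same sum ran from 135 to 164 CPM and in cKO hearts it was 321, 223 and 162, the last within the floxed range, with 10 of 11 positive, a median of 0.91 and Cd68, C1qa, C1qb and Lyz2 past the test. The difference between models passed the edgeR test for 0 of the 11 genes, with 3 negative at an unadjusted p under 0.05 and 1 negative by DESeq2. In the cKO hearts the 5 synthetases summed to 26.7, 18.5 and 13.9 CPM, highest in the same heart as the macrophage sum. The RNA sensors and the member GTPases were also highest in cKO 4. All other roles were highest in cKO 6, the heart with the lowest macrophage sum. Among these, the IFIT genes summed to 43.5, 43.9 and 50.3 CPM. The sum of all 43 members, 589, 575 and 614 CPM, was highest in cKO 6 as well. The sum of 3 pan-leukocyte genes came to 33.2 to 51.7 CPM in WT, 52.0 to 64.8 in KI/KI, 19.7 to 23.0 in floxed and 33.5 to 43.5 in cKO hearts. Genes of T and NK cells stayed low, 11 of them summing to 0.658 to 3.93 CPM over all hearts, with KI/KI (3.12 to 3.93) overlapping WT (2.18 to 3.49) and cKO (1.37 to 3.12) above floxed (0.658 to 1.24) without overlap. Cd4, the only one of them tested at P1, rose by 1.95 (SE 0.46, edgeR adjusted p = 0.0334). It was at 0.295, 0.502 and 0.340 CPM in floxed and at 1.07, 1.06 and 2.39 in cKO hearts, most of the cKO sums. The T cell genes Cd3d, Cd3e and Cd3g, at most 0.290 CPM in any P1 heart, overlapped between the groups. Of the 7 fibroblast genes 5 were positive and 2 negative at P1, and edgeR called Tcf21 and Col1a1 higher. Of the 6 endothelial genes 4 were positive and 2 negative, with Pecam1 and Emcn called higher. Of the 7 cardiomyocyte genes 6 were negative and 1 positive, with Tnni3 and Ryr2 called lower. Over all genes 9.32% were called higher at P1 and 7.57% lower. The sum of 3 genes of plasmacytoid dendritic cells, strong producers of interferon, overlapped between genotypes (253 to 274 CPM in WT, 254 to 294 in KI/KI). Nearly all of that sum was Tcf4 (252 to 293 CPM over adult hearts, log2 fold change 0.08), so it says little of the rarer genes. Siglech was at 0.866, 0.671 and 1.31 CPM in WT and at 0.595, 0.314 and 0.533 in KI/KI hearts. It was lower without overlap, as were 10.8% of all genes (-1.02, edgeR adjusted p = 0.279). No marker on these lists was at 0 in every heart. The part of these cells in the P1 results was not tested either.

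**Figure D5:**
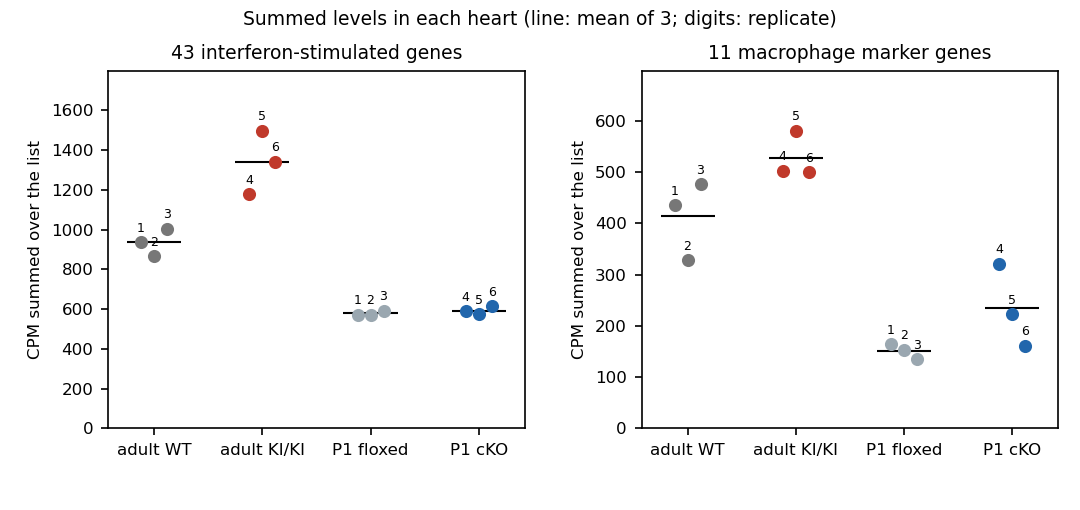
CPM summed over the 43 interferon-stimulated genes (left) and over 11 macrophage marker genes (right) in each heart, with digits for the replicate and a line for the mean of 3; both axes start at 0. The interferon-stimulated genes separate KI/KI (1178 to 1497) from WT (865 to 1005) and overlap at P1, while the macrophage genes are also higher in KI/KI than in WT and reach 321 in cKO 4.

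Between the control groups most members were higher in the adult. In 37 of 43 all WT hearts lay above all floxed hearts, beside 33.9% of all genes, and in 2 all lay below, with a median log2 ratio of 1.05 (all genes -0.05). Scaled to the total count alone, where the median of all genes moved to -0.45, the counts were 26 (beside 19.7% of all genes) and 4 and the median 0.65. Age and the floxed allele cannot be told apart here. Per kilobase of transcript, in RPKM (mean ± SD, n = 3), the most abundant members in WT hearts were Trafd1 (31.3 ± 1.63), Ifi27 (21.4 ± 4.52), Bst2 (19.7 ± 1.20), Lgals3bp (17.2 ± 3.67), Irf1 (14.5 ± 1.72) and Irgm1 (14.0 ± 0.823). From Ifi27 to Irgm1, neighbours in this order differed by less than the larger of their SDs, while Trafd1 stood further from Ifi27. In floxed hearts they were Trafd1 (28.3 ± 3.72), Trim25 (15.2 ± 0.788), Lgals3bp (10.9 ± 0.917), Bst2 (9.25 ± 1.72), Irgm1 (8.93 ± 0.594) and Eif2ak2 (7.87 ± 0.711), where Lgals3bp and Bst2, and Bst2 and Irgm1, differed by less than the larger SD. Oas3 and Mx1 were the least abundant members in both.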

How the data were processed

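The authors deposited read counts per gene symbol, not normalized. According to their methods, Trim Galore trimmed the single-end reads, STAR 2.7.2b aligned them to mm10, SAMtools 1.9 sorted the alignments and HTSeq counted reads per gene. Bowtie2 2.3.4.3 served for library quality. The strand setting of HTSeq is not given in the sources used here, so reads from overlapping exons or near copies can be lost or shared. Totals per heart ran from 37063669 to 44789753 counts. Replicates are separate mice, 3 per group, and no pair agreed within sampling noise (chi-square per degree of freedom 19.3 to 138).

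Fits used R 4.3.3 and edgeR 4.0.16 (filterByExpr, TMM, glmQLFit with robust and non-legacy settings), each comparison on its own 6 hearts and the difference between models on all 12. Benjamini-Hochberg adjustment ran over all genes tested, with a threshold of 0.05. An SE is the absolute log2 fold change divided by the square root of F. The fits were tested on simulated data. Alternatives were DESeq2 1.42.0, limma-voom (limma 3.58.1), RLE size factors, no filter, all 12 hearts together, a fold above 2, other motif letters and leaving out each heart. RPKM is CPM per kilobase of the longest coding transcript (GENCODE M21, GRCm38), and gene positions come from the same annotation. Floors of 3 counts cover counting error only.

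The members and the pathway and marker lists were chosen with earlier results of these data known. Values of every heart are given for members past the edgeR test, for the 12 with the largest and the 4 with the smallest absolute log2 fold change in each comparison, and for the 6 most abundant per kilobase in each control group. The values of 1 pathway gene are not reported here.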

Additional observations from a re-analysis of the deposited data

Results flagged for a closer look

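The difference in genotype effect between adult KI/KI and P1 cKO hearts was tested as an interaction with edgeR. It passed an adjusted p of 0.05 for 1 member and for 5 pathway genes named above. The member was 2.33% of the group, positive. Of 86 pathway genes tested, 4.65% were called positive and 1.16% negative. Over all genes 1.27% were called positive and 1.17% negative. Igtp had a difference of log2 fold changes of 1.10 (0.51 in KI/KI, -0.60 in cKO). Ddx60 had 2.17, Gbp4 1.61, Gbp9 1.11 and Irgm2 0.67, each with a positive value in KI/KI and a negative one in cKO hearts. Aim2 had -1.32, with -0.11 in KI/KI and 1.20 in cKO hearts. With a heart left out, Ddx60 stayed past the test in all 12 fits, Igtp in 4, Aim2 in 3, and Gbp4, Gbp9 and Irgm2 in 2 each.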

How the results depend on the processing

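In adult hearts 0 members were called higher by edgeR with TMM or RLE, without a filter and by limma-voom, but 29 by DESeq2, 3 in the fit of all 12 hearts and from 0 to 3 with a heart left out (3 without KI/KI 4). At P1 the 2 higher and 1 lower became 2 and 2 with DESeq2 and with all 12 hearts, 0 and 0 with a fold above 2, and from 1 to 4 and from 0 to 2 with a heart left out. The 1 member that differed between models became 8 with DESeq2 and from 0 to 5 with a heart left out. Lemd2 was at -0.40 in the adult with DESeq2 (adjusted p = 0.000384), and at -1.48 to -1.04 at P1 with a heart left out, past the test in 4 of 6 fits. The response element was near the start of 29.4% of the 34 member genes when CT had to follow the core, and of 55.9% when its last base was left off. For the single genes followed through every alternative, direction changed only with single hearts left out. The ranges were -0.05 to 0.02 for Trafd1 in the adult and -0.23 to 0.02 for the difference of Ifit2. At P1 they were -0.01 to 0.63 for Ifit3, -0.42 to 0.11 for Gbp2, -0.31 to 0.18 for Sp100, -0.27 to 0.50 for Oasl1, -0.11 to 0.06 for Parp14 and -0.03 to 0.13 for Lgals3bp. Over all members, the difference between models was positive for 41 in the main fit and for 40 with DESeq2 or RLE. That of Irgm1 was 0.01 with edgeR and -0.01 with DESeq2. The cause was not tested. No paired analysis was possible because the compared groups share no replicate numbers.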

Other observations

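By position in GRCm38, 18 of the 43 members lay in 7 groups of neighbours less than 250 kb apart, and the members as a whole were on 15 chromosomes. Ifit2, Ifit3 and Ifit1 (chr19:34550694-34650009) had log2 fold changes of 0.88, 1.18 and 0.99 in KI/KI hearts and 0.96, 0.20 and 0.32 in cKO hearts. Oas2, Oas3 and Oas1a (chr5:120730333-120907521) had 1.11, 2.18 and 1.27 in KI/KI and 0.65, 1.05 and 0.76 in cKO hearts. Rsad2 and Cmpk2 (chr12:26442746-26479837) had 0.68 and 0.46 in KI/KI and -0.24 and -0.21 in cKO hearts. Mx1 and Mx2 (chr16:97447035-97560900) had 1.13 and 0.63 in KI/KI and 0.15 and -0.31 in cKO hearts. These are values of genes in the same hearts, and a likeness between neighbours was not tested.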
